A study of Mus musculus with 8 samples.

Results

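Binding of 4 reprogramming factors was described at 10 mouse genes of the TEAD and Hippo pathway: Tead1, Tead2, Tead3, Tead4, Yap1, Wwtr1, Amotl2, Ankrd1, Lats1 and Lats2. They are 10 of the 21755 protein-coding genes annotated on chromosomes 1-19 and X, and were taken as a list by name. The locus of a gene was its body plus 50 kb on either side of its first transcription start site, and a peak belonged to the locus that held its summit, the base with the most tags. No pair of the 10 loci overlapped. Together they covered 1316 kb and held 769 of the 661009 peak summits of the series.

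The peaks come from CUT&Tag, a method that tethers Tn5 transposase through an antibody and sequences the DNA cut around bound sites. MEFs, fibroblasts grown from mouse embryos, were taken at day 3 of reprogramming, and the antibody recognised the Flag tag on a delivered factor. The tagged factors were Nanog, Oct4, Sox2 and Nr5a2, in native form or with BiD fused to the N-terminus. BiD is the stretch of SS18 that contacts BRG1, which drives the BAF remodelling complex. Each of the 8 groups (native Nanog, NanogBiD, native Oct4, Oct4BiD, native Sox2, Sox2BiD, native Nr5a2 and Nr5a2BiD) holds 1 library, so values stand without replicates and no form could be tested within a factor. The labels do not give the other factors delivered to the same cells, or the age or strain of the embryos behind the MEFs. The study's methods speak of merged replicates, but its reporting summary says that CUT&Tag was done a single time without biological replication. The libraries were made from bulk cells, in which more bound cells and stronger binding per cell cannot be told apart.

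Hippo signalling is a kinase cascade that restrains growth when cells are crowded or under little tension. Lats1 and Lats2 are its final kinases. They phosphorylate Yap1 and Wwtr1 (also known as Taz), which are then kept out of the nucleus. When they are not phosphorylated, Yap1 and Wwtr1 enter the nucleus and act as coactivators of the TEAD proteins, which bind DNA and are encoded by Tead1 to Tead4. Ankrd1 and Amotl2 are well-known targets of this complex, and the Amotl2 protein in turn holds Yap1 in the cytoplasm. TEAD proteins are active in fibroblasts, whose enhancers often carry TEAD and AP-1 sites.

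The lists held from 54794 peaks in native Oct4 to 120594 in Sox2BiD. The lists themselves carry no read totals. The study's reporting summary gives them, and there native Sox2 is the most deeply sequenced library although its list is among the shortest. These totals were not used here. The smallest summit was 6 tags high in native Nanog and 10 tags in native Sox2, so the libraries differ in how low a peak could be called. Counts were therefore also given per 10000 peaks of the library, and heights were ranked within a library. At the coding exons of the delivered factors, which vector DNA can mark, Nanog held 4 summits in its own 2 libraries and 1 in the other 6, Nr5a2 7 and 0, and Sox2 2 and 0. Pou5f1, the gene of Oct4, held 0 in all 8 libraries.

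Some of the strongest summits at the 10 loci belonged to 1 factor in both of its forms. DNA is shown under 7 sites highest in both forms of 1 factor, not all of them among the strongest. It is also shown under 1 summit in a region of overlapping peaks from all 8 libraries. In that region some summits, among them those of native Oct4 and Oct4BiD, lie outside the window. These positions and motifs recur in the results. The windows are on the forward strand of mm10 and reach 50 bases to either side of a summit. Capitals mark matches, on either strand, to CATTCCA or CATTCCT for TEAD, TGACTCA or TGAGTCA for AP-1, CCATTGTT for SOX, ATGCAAAT for the Oct4 octamer, and TCAAGGTCA or TCAAGGCCA or CCAAGGTCA or CCAAGGCCA for NR5A. None of the motifs overlaps another in these windows. GCCATTA was searched for NANOG and matched none of the 8. A match is a description of letters and does not show that the factor binds there. The windows were picked after their matches had been seen. The Lats2 window highest in both Sox2 libraries and the Tead4 window highest in both Nr5a2 libraries were included for their SOX and NR5A matches, whatever their rank. The other windows highest in 1 factor were picked among its top-ranked sites outside exons.
Amotl2, 46302 bp beyond its first start, chr9:102762930-102763030 (highest in both Nanog libraries): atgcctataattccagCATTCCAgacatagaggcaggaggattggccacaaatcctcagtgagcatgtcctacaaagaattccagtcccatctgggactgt
Lats2, intron, chr14:57732756-57732856 (highest in both Oct4 libraries): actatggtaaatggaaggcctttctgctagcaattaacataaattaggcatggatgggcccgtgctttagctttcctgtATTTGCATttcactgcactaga
Tead1, intron, chr7:112855850-112855950 (highest in both Oct4 libraries): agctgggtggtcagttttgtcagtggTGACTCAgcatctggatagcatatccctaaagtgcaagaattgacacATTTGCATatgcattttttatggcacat
Wwtr1, intron, chr3:57503689-57503789 (highest in both Sox2 libraries): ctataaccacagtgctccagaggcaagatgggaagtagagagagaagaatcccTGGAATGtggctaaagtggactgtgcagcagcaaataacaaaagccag
Lats2, intron, chr14:57716773-57716873 (highest in both Sox2 libraries): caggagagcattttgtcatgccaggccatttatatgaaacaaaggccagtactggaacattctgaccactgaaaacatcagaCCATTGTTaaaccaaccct
Tead1, upstream, chr7:112662549-112662649 (highest in both Nr5a2 libraries): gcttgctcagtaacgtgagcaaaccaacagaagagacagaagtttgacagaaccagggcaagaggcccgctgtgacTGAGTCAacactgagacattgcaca
Tead4, intron, chr6:128237899-128237999 (highest in both Nr5a2 libraries): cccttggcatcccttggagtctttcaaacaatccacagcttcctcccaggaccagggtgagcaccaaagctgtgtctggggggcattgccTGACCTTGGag
Tead4, intron, chr6:128282270-128282370 (a peak in all 8 libraries): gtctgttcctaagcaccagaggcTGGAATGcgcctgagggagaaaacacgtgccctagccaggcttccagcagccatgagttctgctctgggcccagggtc

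All 10 loci were bound in at least 7 libraries, and the 2 with the most summits were Tead1 and Wwtr1, each with a long gene body. Tead1 had 22 summits in native Nanog and 24 in NanogBiD, 15 and 24 in the Oct4 libraries (native first), 19 and 34 in those of Sox2, and 28 and 25 in those of Nr5a2. Wwtr1 had 16, 13, 6, 12, 17, 22, 14 and 11 summits in the same order. Native Oct4, the shortest list, had the fewest summits at both loci and Sox2BiD, the longest list, had the most.

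The coactivator Yap1 had 7, 10, 7, 10, 5, 15, 13 and 6 summits in the same order of libraries. The kinase gene Lats2 had 10, 9, 8, 7, 10, 15, 13 and 10, and Lats1 had 4, 4, 6, 9, 6, 8, 11 and 5. All 3 genes had more summits in Sox2BiD than in native Sox2 and fewer in Nr5a2BiD than in native Nr5a2, as the lists did in length. The targets Amotl2 and Ankrd1 had 3, 5, 4, 2, 6, 11, 10 and 8 summits and 8, 11, 5, 4, 3, 9, 9 and 6 summits. Amotl2 was lowest in Oct4BiD and Ankrd1 in native Sox2.

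The other TEAD genes had fewer summits than Tead1. Tead4, best known from the trophectoderm, had 4, 7, 5, 9, 4, 8, 17 and 11 summits, with the most in the Nr5a2 libraries. Tead3 had 7, 8, 3, 8, 1, 7, 14 and 8. Tead2 had 2, 3, 1, 7, 0, 8, 9 and 4, and native Sox2 was the only library of the 8 in which a member's locus was without a summit.

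**Figure D1:**
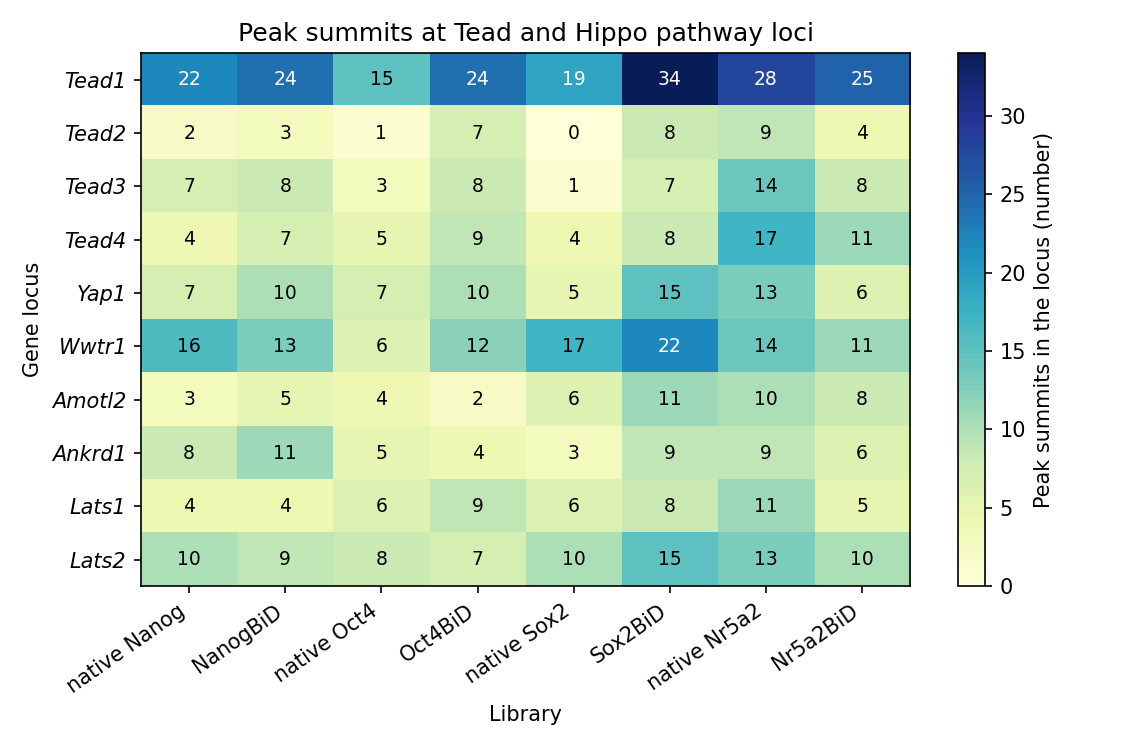
Number of peak summits at each of the 10 gene loci (rows) in each of the 8 libraries (columns), with the count printed in each cell and shaded from 0 upward. Tead1 ranges from 15 to 34 summits and Tead2 from 0 to 9.

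Per length of locus, 9 of the 10 genes were more densely bound than the middle of all genes. The mean over the 8 libraries was 8.63 summits per 100 kb for Lats2, 8.60 for Tead1 and 8.15 for Wwtr1. It was 7.44 for Yap1, 7.0 for Tead3, 6.87 for Ankrd1, 6.62 for Lats1, 6.42 for Tead4, 6.12 for Amotl2 and 4.25 for Tead2. The median of the 10 was 6.94, against 4.62 over all 21755 genes. Lats2 and Tead1 were at or above 98.2% and 97.9% of all genes, and Tead2 at or above 45.0%. No gap between neighbours in this order was tested. A list of 20 other Hippo pathway genes, among them Stk3, Nf2, Amotl1 and Vgll4, had a median of 6.95, close to that of the 10 members. Neither list is a random draw from all genes, and the density of genes that MEFs express was not separated from it.

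Most of the summits lay away from promoters. A site bound in several libraries was counted once in each of them. The share of summits farther than 2 kb from any annotated start ran from 68.3% in native Oct4 to 81.7% in native Sox2, and the share at a start of the gene itself from 9.86% in native Sox2 to 16.7% in native Oct4. Tead1 had 166 distal summits of 191 and Wwtr1 97 of 111. Lats1 and Tead2 differed from them, with 27 of 53 and 18 of 34 summits at starts of other genes. The locus of Lats1 holds the starts of 3 other protein-coding genes (Pcmt1, Nup43 and Katna1) and that of Tead2 holds 6, while Tead1, Tead4, Wwtr1 and Amotl2 hold none, so a summit at Lats1 or Tead2 is less readily read as belonging to the named gene.

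**Figure D2:**
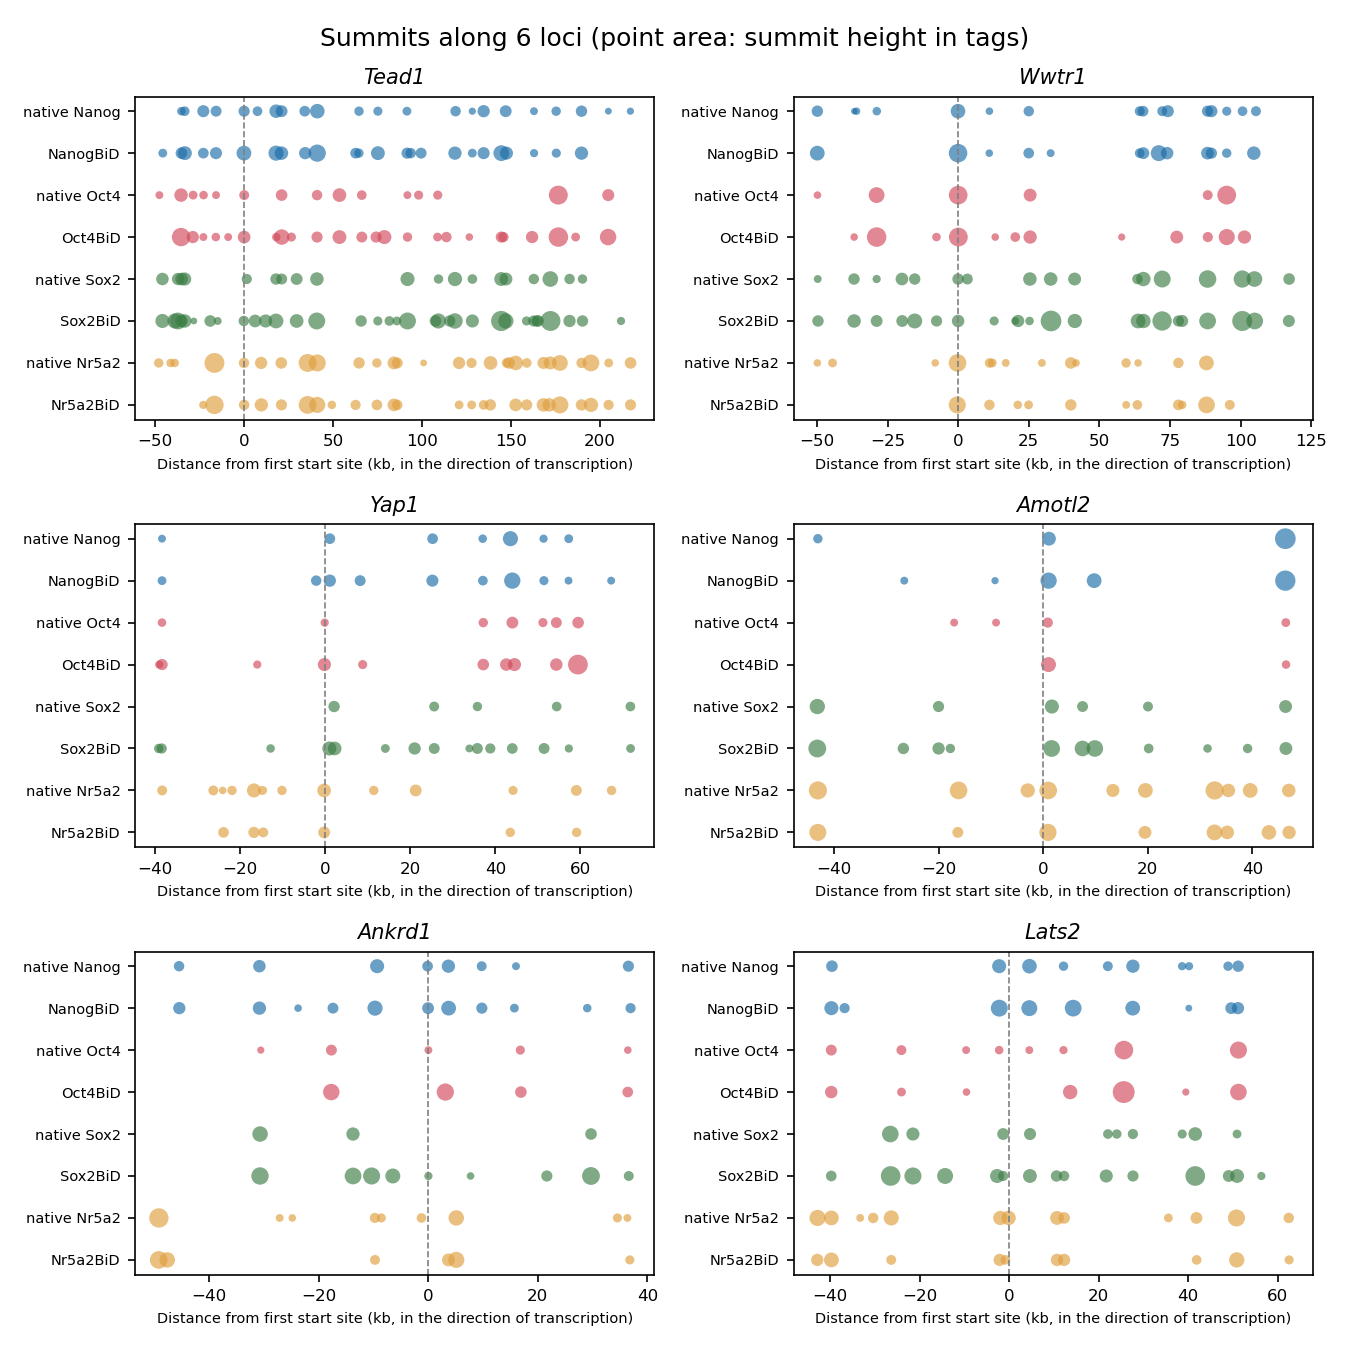
Position of each summit along 6 of the loci, in kb from the first start site of the gene in the direction of transcription, by library, with point area proportional to summit height in tags and colour by factor. Both libraries of a factor place tall summits at the same positions, such as 46302 bp beyond the start of Amotl2 for Nanog and 25582 bp beyond the start of Lats2 for Oct4.

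At promoters, defined as within 2 kb of any annotated start of the gene, 5 of the 10 members had a summit in all 8 libraries: Tead1, Yap1, Wwtr1, Amotl2 and Lats2. Over all 21755 genes this held for 17.4%, without regard to the number of starts of a gene. Wwtr1 had its promoter summits at 1 place, within 334 bp of the first start in every library. Its heights were 41 tags in native Nanog and 66 in NanogBiD, 67 and 68 in the Oct4 libraries (native first), 25 and 30 in those of Sox2, and 60 and 56 in those of Nr5a2. The 2 Sox2 libraries were the lowest of the 8. The merged region over the first start of Tead1 had heights of 24, 42, 19, 31, 20, 21, 21 and 21 tags in the same order, and that of Yap1 22, 29, 13, 33, 25, 36, 36 and 27 tags. Neither set the Sox2 libraries apart.

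The merged region over the first start of Amotl2 had heights of 37, 51, 20, 43, 38, 54, 60 and 57 tags. The scores of these peaks were 113, 76.1, 84.5, 217, 251, 50.1, 133 and 336. The lowest score in a list is 50, so the 54 tags of Sox2BiD were barely called. The merged region over the first start of Lats2 had peaks in 7 libraries and none in Oct4BiD. Its heights were 38, 55, 14, 27, 38, 40 and 29 tags in the others, and its highest-scoring summit lay 2223 bp upstream of that start. Lats2 has 8 annotated starts. The highest-scoring promoter summits of the libraries lay at different ones, from 1360 bp upstream of the first start in native Sox2 to 25621 bp into the gene in native Oct4. Their heights were 17, 54, 67, 92, 27, 25, 40 and 30 tags. The tall Oct4 summits were thus within 2 kb of an internal start.

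The remaining promoters were bound in fewer libraries. Tead4 lacked a promoter summit in native Sox2 only, with 12, 18, 18 and 22 tags in the Nanog and Oct4 libraries, 11 in Sox2BiD, 58 in native Nr5a2 and 26 in Nr5a2BiD. These summits were not at 1 place. In native Nr5a2 and Nr5a2BiD they lay 1224 and 1221 bp upstream of the first start, and in the others 108 to 282 bp into the gene. Lats1 lacked one in both Sox2 libraries, and had 14, 36, 11, 19, 39 and 25 tags in the other 6. The last pair lay in an intron, in native Nr5a2 11976 bp into the gene and 1943 bp from the nearest start. A summit in all 6 libraries of Nanog, Oct4 and Nr5a2 was found at 6811 promoters, of which 4.21% had none in either Sox2 library and 39.8% had one in Sox2BiD but not in native Sox2. Lats1 belonged to the first of these groups and Tead4 to the second.

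Tead3 had promoter summits in 6 libraries and none in native Oct4 or native Sox2. Ankrd1 had them in 5, none above 27 tags. Tead2 had them in 3: 17 tags in Sox2BiD, 55 in native Nr5a2 and 19 in Nr5a2BiD. With Nanog, 9 members had a promoter summit in the native library (51.6% of all genes did) and 9 in the BiD library (55%). With Oct4 the numbers were 8 (39.3%) for native and 8 (56.4%) for BiD. With Sox2 they were 5 (25.4%) and 9 (53.8%), and with Nr5a2 10 (64.0%) and 9 (54.4%). In every library the members' share was above that of all genes, and in native Sox2 both were lowest. A gene with more annotated starts has more promoter sequence in which a summit can fall. Tead2 has 16 starts and Tead1 and Amotl2 have 13 each, and the shares were not adjusted for this. Of the 20 other pathway genes, 7 had a promoter summit in all 8 libraries.

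Overlapping peaks of the 8 libraries were merged into regions, 261 of them at the 10 loci. Of these, 13 had a peak in all 8 libraries, or 4.98%, against 1.49% of the 306466 regions of the genome. Single-library regions were 88 of the 261, or 33.7%, against 46.0% of all regions. By gene, 8 of the 10 loci held at least 1 region found in all 8 libraries, against 34.2% of all genes. This share was not adjusted for the length of a locus, from 100 kb at Tead2 and Ankrd1, among others, to 277 kb at Tead1. Lats1 had 3, Tead1, Wwtr1 and Amotl2 had 2 each, and Tead3, Tead4, Yap1 and Lats2 had 1 each. Tead2 and Ankrd1 had none. All 3 at Lats1 lay at the starts of its neighbours Pcmt1, Nup43 and Katna1.

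**Figure D3:**
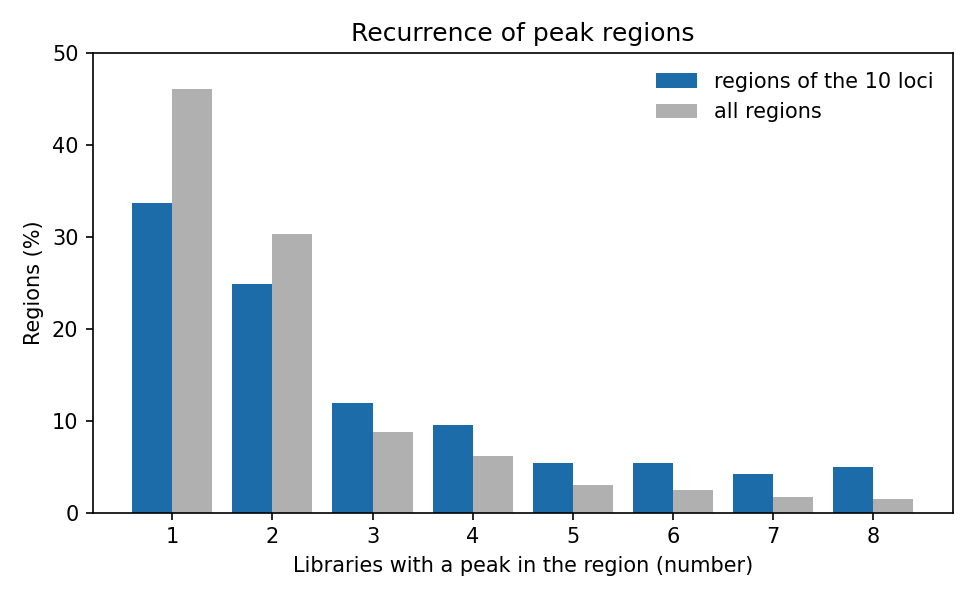
Share of merged regions (percent) by the number of libraries with a peak in the region, for the 261 regions of the 10 loci and for all 306466 regions. The member loci have a larger share than the genome at each number from 3 to 8 and a smaller one at 1 and 2.

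Distal regions were among those found in every library. In an intron of Tead1, 40789 bp beyond its first start, summits reached 41, 57, 21, 24, 35, 55, 56 and 50 tags, from native Nanog to Nr5a2BiD. In the merged region around the Tead4 window shown last above, heights were 14, 20, 37, 31, 19, 36, 36 and 33 tags. That window does not hold the summits of every library: those of native Oct4 and Oct4BiD were at chr6:128280983 and chr6:128280957. At Tead4 the Nanog libraries included the lowest height of the 8, and at Tead1 the Oct4 libraries were the lowest pair. A region in a Wwtr1 intron, 87866 bp from the first start, had 24, 31, 19, 20, 59, 54, 42 and 54 tags, and there Sox2 and Nr5a2 were above Nanog and Oct4. Being called in all libraries therefore did not mean being called at an even height. Summits within these regions could also differ in position. Only 2 regions, against 13, held all 8 libraries when summits were joined in place of peaks, with at most 100 bp between neighbouring summits.

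The clearest case of an uneven site was the region beyond Amotl2. Its heights were 82 tags in native Nanog and 79 in NanogBiD, against 15 in native Oct4, 14 in Oct4BiD, 32 in both Sox2 libraries, 35 in native Nr5a2 and 34 in Nr5a2BiD. Its scores put it at the 99.7th and 99.8th percentile of the 2 Nanog lists. The window holds a TEAD match and no NANOG match. The region is intergenic, its nearest annotated start is that of Gm36958 at 3535 bp, and whether it acts on Amotl2 was not tested.

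A region was called led by a factor when both libraries of that factor had a higher height percentile there than each of the other 6 libraries, with a library without a peak counted as 0. This rule was made after the summit positions had been seen. Heights below are those of each library's highest-scoring peak in the merged region, and their summits can lie apart from the window shown. Of the 173 regions at the loci with a peak in at least 2 libraries, 115 were led by 1 factor, or 66.5%, against 70.8% of such regions in the genome. The share is thus near that of the genome, and what follows describes the sites and singles out nothing about the list. Nr5a2 led 45 regions (26.0%, against 26.0% of such regions in the genome) and Sox2 30 (17.3%, against 17.9%). Oct4 led 21 (12.1%, against 13.2%) and Nanog 19 (11.0%, against 13.7%). By gene, Tead1 had 28 led regions, of which Nr5a2 led 12, and Wwtr1 had 18, of which Sox2 led 10. Tead4 had 11, of which Nr5a2 led 7 and Nanog 0.

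Oct4 led at Lats2 and Tead1. The Lats2 intron site had 67 and 92 tags in the native and BiD libraries of Oct4, 17 with native Sox2 and no peak in the other 5 libraries. The Tead1 intron site, 176633 bp from the first start, had 69 and 73 tags in the Oct4 libraries, 17 and 16 in those of Nanog, 48 in native Nr5a2, 56 in Nr5a2BiD and no peak in those of Sox2. Both windows hold the octamer, on the minus strand. An Oct4-led site 41316 bp upstream of Tead4, in an exon of Tulp3, had 67 and 71 tags, against 18 and 20 in the Nanog libraries and no peak in the other 4.

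Sox2 led at sites in the introns of Wwtr1. At 100541 bp from the first start, native Sox2 reached 57 tags and Sox2BiD 77, against 18 in native Nanog, 34 in Oct4BiD and no peak elsewhere. At 72171 bp the heights were 55 and 72 tags, and the window there holds a TEAD match. The merged region also held peaks of 28 tags in native Nanog and 49 in NanogBiD, with summits outside that window. A Sox2-led site in Lats2, 41565 bp into the gene, is the only 1 of the 30 Sox2-led windows with a SOX match. Its heights were 36 tags in native Sox2 and 74 in Sox2BiD, with 27 in native Nr5a2, 18 in Nr5a2BiD and no peak elsewhere.

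Nr5a2 led at Tead1 and Ankrd1. The site 16719 bp upstream of Tead1, in an intron of 2310014F06Rik, had 76 tags in native Nr5a2 and 65 in Nr5a2BiD, against 23, 28, 12 and 14 in the Nanog and Oct4 libraries and no peak with Sox2. The site 49157 bp upstream of Ankrd1 had 72 and 60 tags, with 19 in Oct4BiD and no peak in the other 5. Neither window holds an NR5A match. The highest-ranked Nr5a2-led window outside exons that does hold one is the Tead4 intron at 62874 bp, with 33 and 29 tags.

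The motif of the leading factor was present at some of these regions. The octamer was found at 6 of the 21 Oct4-led regions, or 28.6%, and at 0 of the 94 others. NR5A was found at 6 of the 45 Nr5a2-led regions, or 13.3%, and at 0 of the 70 others. Over all led regions of the genome, the octamer was found at 8.89% of the Oct4-led and NR5A at 10.9% of the Nr5a2-led. In regions of the genome led by the other factors, the octamer was at 0.398% to 0.587% and NR5A at 0.340% to 0.472%. The NR5A share and the absence of both motifs from the others were thus near the genome. The difference in the octamer share was not tested. SOX was found at 1 of 30 Sox2-led regions and NANOG at 0 of 19 Nanog-led, against 2.95% and 2.80% over the genome, which these numbers of regions are too few to set apart.

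TEAD matches within 50 bp of the summit were present at 66 of the 769 summits of the loci, or 8.58% (exact 95% interval 6.70 to 10.8), against 7.58% of all summits. The interval holds the share of the genome. Member summits had the motif most often in native Nanog, at 13 of 83 or 15.7% (8.61 to 25.3), and least often in native Nr5a2, at 4 of 138 or 2.90% (0.795 to 7.26). Over all summits native Nanog was also highest, at 11.3%, and native Nr5a2 lowest, at 5.43%. By gene the share was 16.3% at Amotl2, 14.6% at Lats2 and 9.95% at Tead1, and Tead2 had 0 of 34. Summits of different libraries at 1 region share a sequence, so these counts are not independent and the intervals cover counting error only. AP-1 matches were at 7.80% of member summits and 7.31% of all.

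**Figure D4:**
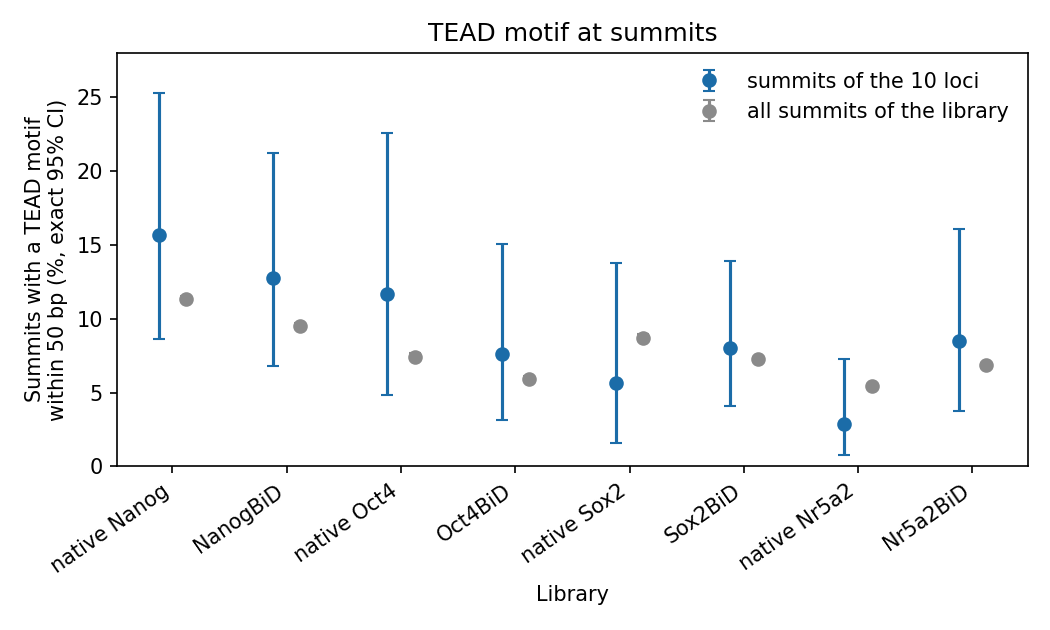
Share of summits with a TEAD match within 50 bp (percent, with exact 95% intervals) at the 10 loci and over all summits of each library. The member intervals hold the share of all summits in each of the 8 libraries, and native Nanog is highest in both sets.

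BiD and native forms were then compared with a limma fit across 18812 genes, in which the 4 factors served as the repeat of the contrast. None of the 10 members was called (limma, Benjamini-Hochberg adjusted), and none passed at an unadjusted p under 0.05. No gene of the 18812 was called either (0.0%), with 1099 at an unadjusted p under 0.05. The median log2 difference of the 10 was -0.04, against 0.12 over all genes tested, and 5 of the 10 were above 0. Tead2 had the largest, at 1.11 (SE 0.52, 95% interval -0.01 to 2.23, limma adjusted p = 0.784). Its counts were 2 and 3, 1 and 7, 0 and 8, and 9 and 4 in native and BiD for Nanog, Oct4, Sox2 and Nr5a2, so BiD was above native in 3 factors and below in Nr5a2, whose native list is the longer.

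The lowest difference was that of Lats1, at -0.38 (SE 0.22, 95% interval -0.85 to 0.10). For Tead1 the difference was 0.02 (SE 0.15, 95% interval -0.30 to 0.34), the narrowest interval of the 10. For Yap1 it was 0.01 (-0.45 to 0.47), and for Wwtr1 -0.17 (-0.55 to 0.21).

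**Figure D5:**
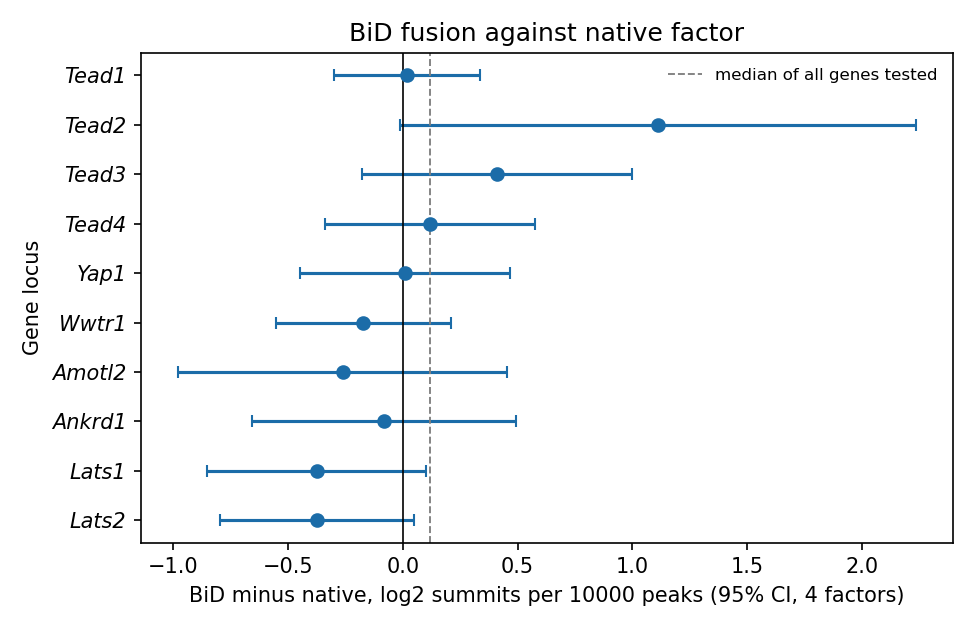
Difference between BiD and native forms in summits per 10000 peaks (log2) at each locus, as the limma estimate over 4 factors with its 95% interval, with a solid line at 0 and a dashed line at the median of all genes tested (0.12). All 10 intervals include 0, and that of Tead2 is the widest.

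Within each factor, the summed count at the 10 loci followed the length of the list. The loci held 83 summits in native Nanog and 94 in NanogBiD, or 11.3 and 12.4 per 10000 peaks. For Oct4 they held 60 and 92, or 11.0 and 9.79 per 10000 peaks. For Sox2 they held 71 and 137, or 12.2 and 11.4, and for Nr5a2 138 and 94, or 12.8 and 12.3. The log2 ratio of BiD over native per 10000 peaks was 0.13 (exact binomial 95% interval -0.31 to 0.58) for Nanog and -0.16 (-0.65 to 0.33) for Oct4. It was -0.10 (-0.53 to 0.33) for Sox2 and -0.05 (-0.44 to 0.34) for Nr5a2. None of the intervals, which cover counting error only, leaves out 0. Unscaled, the ratios were 0.18, 0.62, 0.95 and -0.55, which carries the length of the lists.

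The forms of a factor shared regions at these loci at percentages above those over all regions in 7 of 8 comparisons, and the differences were not tested. Among native regions, the share that also had a BiD peak was 87.5% (Nanog), 83.3% (Oct4), 92.9% (Sox2) and 60.2% (Nr5a2). Over all regions these shares were 72.9%, 73.4%, 86.4% and 60.9%. Among BiD regions, the share that also had a native peak was 76.9% (Nanog), 53.8% (Oct4), 50.4% (Sox2) and 88.9% (Nr5a2), against 70.4%, 42.8%, 41.9% and 86.3% over all regions. Regions found in 1 library were mostly from the longer list of each pair, at the loci as over the genome. For Sox2, 27 were found in the BiD library alone and 1 in the native library (10.3% and 0.383% of the 261, against 12.7% and 1.77% of all regions). For Oct4 the numbers were 13 and 1 (4.98% and 0.383%, against 10.6% and 2.92%), and for Nanog 9 and 2 (3.45% and 0.766%, against 3.67% and 2.66%). For Nr5a2 they were 2 and 33 (0.766% and 12.6%, against 1.80% and 9.96%). A further 48 regions, or 18.4%, were found in both forms of 1 factor only, against 25.5% of all regions. Nr5a2 had 26 of them (9.96%, against 10.1% of all regions), Sox2 12 (4.60%, against 6.62%), Oct4 5 (1.92%, against 5.03%) and Nanog 5 (1.92%, against 3.78%). One of the Nr5a2 sites lay 5136 bp beyond the first start of Ankrd1, with 46 tags in native Nr5a2 and 50 in Nr5a2BiD.

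Differences among the 4 factors were tested in the same fit. The factor term was called for 24.2% of the genes tested and for 3 of the 10 members, a share near that of all genes: Tead3 (limma F test, adjusted p = 0.0328), Wwtr1 (adjusted p = 0.0454) and Tead4 (adjusted p = 0.04997). The mean of both forms, as log2 summits per 10000 peaks, was for Tead3 0.29 with Nr5a2, 0.10 with Nanog, -0.40 with Oct4 and -1.32 with Sox2. For Tead4 it was 0.64 with Nr5a2 and 0.01, -0.36 and -0.44 with Oct4, Nanog and Sox2. For Wwtr1 it was 1.24 with Sox2, 1.0 with Nanog, 0.51 with Nr5a2 and 0.33 with Oct4. Tead3 and Tead4 were thus highest with Nr5a2, and Wwtr1 with Sox2.

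Each of these 3 calls was lost when single libraries were left out. The calls over all 18812 genes changed in these removals too. They numbered 4546 with all libraries, 1111 without native Nr5a2, 1213 without native Nanog and 8118 without Sox2BiD. Tead3 was lost in 5 of the 8 removals, the removal of native Sox2 among them (limma adjusted p from 0.00628 to 0.101). Tead4 was lost in 6 of 8 (limma adjusted p from 0.0400 to 0.292, the highest without native Nr5a2). Wwtr1 was lost in 6 of 8 (limma adjusted p from 0.0133 to 0.118, the highest without native Oct4). Without scaling to the peaks of a library, 0 of the 3 were called, and 536 of all 18812 genes. Tead3 was also lost with a window of 20 kb (limma adjusted p = 0.228). Tead4 and Wwtr1 were lost with a window of 100 kb (limma adjusted p = 0.0561 and 0.0640) and among the 20000 highest-scoring peaks (0.0739 and 0.148).

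Of the 20 other pathway genes, 4 were called for the factor term in the limma fit (24.2% of all genes) and 0 for the form term. Stk3, which encodes a kinase upstream of Lats1 and Lats2, was one (adjusted p = 0.0144), with 14, 17, 12, 24, 16, 21, 10 and 7 summits from native Nanog to Nr5a2BiD, lowest in the Nr5a2 libraries. Nf2, which encodes the upstream activator Merlin, was another (limma adjusted p = 0.0410), with 5, 7, 4, 11, 3, 11, 15 and 13 summits, highest in the Nr5a2 libraries. The others were Wwc1 and Sav1.

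Stk4, a close relative of Stk3, had 10, 10, 10, 12, 4, 12, 13 and 7 summits and was not called (limma adjusted p = 0.0975). Vgll4, whose protein competes with Yap1 for TEAD, had 12, 12, 6, 14, 6, 19, 20 and 12 (limma adjusted p = 0.365). The classic YAP targets Ccn1 and Ccn2 had 8, 7, 7, 10, 11, 12, 14 and 12 and 4, 6, 8, 9, 8, 9, 10 and 6 summits. Ccn1 had the highest density of the 30 genes, at 10.1 summits per 100 kb, and had a promoter summit in each of the 6 libraries of Nanog, Oct4 and Sox2 but none in either Nr5a2 library.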

How the data were processed

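CUT&Tag peaks of 8 libraries, 1 per factor and form, were taken as the authors deposited them. Their methods name Trim Galore 0.6.4 for trimming and Bowtie2 2.4.5 for mapping to mm10. The authors removed repetitive, mitochondrial and poorly mapped reads with SAMtools 1.16.1 and called peaks with MACS 1.4.2 (1 tag per position, no shift model, shift size 25 bp). No control library is named. The deposited score of a peak is 10 times the negative log10 of its MACS p-value, with a lowest value of 50. The deposited summit height is the signal in tags at the summit, not scaled to depth. Read totals are stated in the study's reporting summary and were not used here. Removal of repetitive reads leaves near-identical sequence without peaks. The labels describe a kit with 100000 cells per sample, and the paper's methods another kit, so the protocol of these libraries is uncertain.

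Summits were assigned to loci with GENCODE M21, and sequences were read from the RefSeq copy of GRCm38, the assembly of mm10. Peaks overlapping by at least 1 bp were merged into regions. Counts were fitted with limma 3.58.1 in R 4.3.3 as log2 of (summits + 0.5) per 10000 peaks, with factor and form as terms (3 residual degrees of freedom), for genes with at least 8 summits in all, and p-values were adjusted by Benjamini-Hochberg over all genes tested. The fit was tested on simulated data. With 1 library per group, the spread comes from the disagreement of the 4 factors. Shares have exact Clopper-Pearson 95% intervals.

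The members and lists were chosen with earlier results of these data known. All 10 members were named. Of the 20 other pathway genes, 6 were named with values, and others only as called or as examples of the list. Regions were named as those found in most libraries or in 1 factor, and the regions led by 1 factor were added later. Alternatives were other windows around the start, score filters, scalings and left-out libraries.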

Additional observations from a re-analysis of the deposited data

Results flagged for a closer look

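The summed count at the 10 loci per 10000 peaks was higher in NanogBiD than in native Nanog (log2 ratio 0.135) while the ratios of Oct4, Sox2 and Nr5a2 were below 0. Without scaling, it was Nr5a2 that stood alone, with a log2 ratio of -0.554 against positive ratios of the other 3 factors. With 1 library per group the differences between factors were not tested, and all 4 scaled intervals include 0.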

How the results depend on the processing

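With 1 library per group and heights not scaled to depth, the counts describe these 8 lists. The count of members called for BiD against native was 0 under each alternative. The count called among factors was 1 with a window of 100 kb, where 6850 of the 19677 genes tested were called. It was 0 without scaling, where 536 of 18812 genes were called, against 4546 in the main fit. When single libraries were left out it was 0 to 4, and 1111 to 8118 of the 18812 genes were called. The calls over all genes thus also changed with the setting. Without scaling, the log2 ratios at the loci were 0.617 for Oct4, 0.948 for Sox2 and -0.554 for Nr5a2. Regions with a peak in all 8 libraries numbered 21 with a window of 100 kb, 5 at a score of at least 100 and 0 among the 20000 highest-scoring peaks. They numbered 2 when neighbouring summits at most 100 bp apart were joined, and 13 to 19 with single libraries left out. Members with a promoter summit in all 8 numbered 2 within 500 bp, 2 at a score of at least 100 and 0 among the 20000 highest-scoring peaks, and 5 to 6 with single libraries left out. The share of all genes was not taken at these settings. The TEAD share was 4.55% within 25 bp and 15.7% within 100 bp, where a wider window has more chances of a match. By score percentile in place of height percentile, 110 regions were led by 1 factor. Leaving out single libraries and the score percentile were chosen after seeing the data. The fit of BiD against native pairs the forms within each factor, and without the factor block it also called 0 members.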
